A study of Mus musculus with 6 samples.

Results

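The mouse genes named Zfp700 to Zfp999 encode, for the most part, zinc finger proteins of the Cys2-His2 type. They were chosen by symbol and by a measured value, namely at least 60 estimated counts summed over the 6 libraries. Of 139 genes with such a symbol among 55401 gene identifiers in the table, 121 met that value and are described here. Another 18 had fewer counts, and 4 of these had 0 in every library. Just inside the threshold stood Zfp982 with 79 summed counts, Zfp708 with 111 and Zfp941 with 111. Just outside stood Zfp988 with 57 and Zfp972 with 54. Zfp988 had 23, 20 and 14 counts in the NOD/Ltj libraries and 0 in each ICR library.

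Most proteins of this kind carry a KRAB domain at the amino end and a row of zinc fingers at the carboxyl end. The fingers bind DNA, often within retroelements, and the KRAB domain recruits Trim28, which brings in the histone methyltransferase Setdb1 and silences the bound sequence. The genes multiplied by local duplication, so they lie in chromosomal clusters of similar copies whose number and sequence vary between mouse strains. In the lacrimal gland, which makes the watery part of tears, few of them have a known role.

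The libraries came from lacrimal glands of NOD/Ltj mice (n = 3) and of ICR mice, which served as the control (n = 3). NOD/Ltj mice are inbred, develop autoimmune inflammation of the tear and salivary glands without induction and serve to model Sjögren's syndrome, whereas ICR is an outbred stock. The labels give neither age nor sex for either strain, and they name no treatment. Nothing in them states that the 3 samples of a strain are different animals, and the p-values therefore reflect the scatter among samples, which may be technical.

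The libraries held 58426580 to 76554340 estimated counts, at about 4 counts per read pair. Among cell type markers, acinar genes summed to between 48046 and 70195 CPM (counts relative to library size, scaled by the TMM method) in NOD/Ltj and between 33453 and 69240 CPM in ICR, so both strains carried the gland's secretory cells. B cell markers summed to between 119 and 492 CPM in NOD/Ltj and between 2.57 and 6.17 CPM in ICR, with 7 of 8 called, and T cell markers to between 33.4 and 96.5 CPM in NOD/Ltj and between 3.54 and 4.06 CPM in ICR, with 4 of 9 called. Salivary gland markers summed to between 44.8 and 1992 CPM in NOD/Ltj and between 555 and 11515 CPM in ICR, highest in ICR 3, where skeletal muscle markers also stood at 95.7 CPM. Harderian and sebaceous markers summed to between 255 and 312 CPM in NOD/Ltj and between 342 and 362 CPM in ICR, and endothelial markers to between 21.4 and 33.98 CPM in NOD/Ltj and between 11.96 and 19.8 CPM in ICR. ICR 1 had the highest macrophage (140.4 CPM) and adipocyte (68.6 CPM) markers. The salivary marker Smgc was at 0 in every library. The part of these cell types in the differences below was not tested, and in bulk tissue fewer cells of a type and less RNA per cell cannot be told apart.

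The first set of sequences shows how alike the chromosome 2 copies are at their start sites. RefSeq promoter windows (GRCm38.p6, 250 bases before to 50 bases after the start) were found for 104 of the 121 genes. The window of Zfp966 lies at chr2:175931051-175931350 on the minus strand, and its capitals mark CCAAT on either strand. That of Zfp967 was identical to it over all 300 bases, and that of Zfp968 over the 274 bases they share. Those of Zfp965 and Zfp973 each differed from it at 1 base. The window of Zfp970 (chr2:177464492-177464791, plus strand) differed at 2 of 295 shared bases and that of Zfp971 (chr2:178023034-178023333, plus strand) at 7 of 286, and the capitals mark the differing bases. The level of Zfp971, given below, was close in both strains, while Zfp966 had the largest fold change of these genes. In the reference genome 97.6% of their shared promoter bases are the same. The promoters of NOD/Ltj and ICR mice were not examined, and a link between window and level was not tested.
Zfp966: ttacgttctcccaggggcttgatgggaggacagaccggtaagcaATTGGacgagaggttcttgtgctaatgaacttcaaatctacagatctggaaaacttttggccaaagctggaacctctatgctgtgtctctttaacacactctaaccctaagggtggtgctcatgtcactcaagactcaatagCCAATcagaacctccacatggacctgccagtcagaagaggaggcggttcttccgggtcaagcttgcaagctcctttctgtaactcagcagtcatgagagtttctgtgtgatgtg
Zfp970: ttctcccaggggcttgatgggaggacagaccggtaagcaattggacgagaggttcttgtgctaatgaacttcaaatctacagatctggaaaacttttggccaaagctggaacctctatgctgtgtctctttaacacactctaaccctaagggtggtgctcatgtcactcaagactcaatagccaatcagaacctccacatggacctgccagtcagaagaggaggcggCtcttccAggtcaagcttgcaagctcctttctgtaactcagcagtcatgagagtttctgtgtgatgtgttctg
Zfp971: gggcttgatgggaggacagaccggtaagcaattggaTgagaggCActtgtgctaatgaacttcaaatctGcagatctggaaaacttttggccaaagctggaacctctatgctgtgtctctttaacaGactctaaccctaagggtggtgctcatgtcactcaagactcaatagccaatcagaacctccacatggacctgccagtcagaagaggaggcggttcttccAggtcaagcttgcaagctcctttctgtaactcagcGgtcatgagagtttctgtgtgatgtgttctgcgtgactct

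The second set belongs to the chromosome 13 cluster. Zfp729a (chr13:67637732-67638031, minus strand) and its neighbour Zfp738 (chr13:67683463-67683762, minus strand) were aligned without gaps and were identical at 182 of 279 bases, or 65.2%. The spacing between their matching stretches differs, so bases past such a place were compared out of register. This share therefore understates how alike the windows are. Capitals mark the letters ACTACANTT on either strand, a motif held by 11.4% of the 123 promoter windows of these genes and by 1.57% of all 32851 windows. CCAAT was in 62.6% of their windows and 37.4% of all windows, GGGCGG in 40.7% and 35.7%, and TATAAA in 5.69% and 13.6%, each searched on both strands. None of these motifs contains another. Windows of duplicated genes resemble each other, so these shares describe the windows and are not independent counts.
Zfp729a: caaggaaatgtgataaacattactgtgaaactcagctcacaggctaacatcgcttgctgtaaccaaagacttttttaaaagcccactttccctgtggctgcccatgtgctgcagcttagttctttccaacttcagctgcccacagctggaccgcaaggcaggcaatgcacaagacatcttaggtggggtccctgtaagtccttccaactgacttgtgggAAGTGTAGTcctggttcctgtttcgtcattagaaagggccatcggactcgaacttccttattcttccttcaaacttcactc
Zfp738: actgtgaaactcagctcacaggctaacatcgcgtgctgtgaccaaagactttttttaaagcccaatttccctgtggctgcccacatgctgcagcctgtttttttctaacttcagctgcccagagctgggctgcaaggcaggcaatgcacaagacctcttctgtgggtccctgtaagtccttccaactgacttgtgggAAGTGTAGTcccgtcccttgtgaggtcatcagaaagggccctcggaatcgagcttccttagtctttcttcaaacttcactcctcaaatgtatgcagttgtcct

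The Zfp symbol stands for zinc finger protein, so finger patterns in most of these genes follow from the choice by symbol. Of 119 with a coding transcript, 91 carried a KRAB-like amino acid pattern, and their median number of finger patterns was 11. Zfp729b had the most, with 30. No finger pattern was found in 5 of them (Zfp703, Zfp707, Zfp750, Zfp781 and Zfp839). All 7 genes called below carried the KRAB pattern. The median log2 fold change was 0.19 in the 90 tested genes with the pattern and 0.21 in the 30 tested genes without it, so these medians lay close together.

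The comparison asked which of these genes have different transcript levels in NOD/Ltj and ICR glands. Of the 121, 120 passed the filter on low counts, the exception being Zfp708, and edgeR's quasi-likelihood test called 7 of them (5.83%) higher in NOD/Ltj at an adjusted p (Benjamini-Hochberg) under 0.05. They were Zfp966, Zfp967, Zfp968, Zfp729a, Zfp990, Zfp808 and Zfp788. Over all 18537 genes tested, 349 (1.88%) were called higher. Without Zfp966 and Zfp729a, which were picked for their strain difference, 5 of 118 (4.24%) were called. None of the 120 was called lower, against 67 (0.361%) of all genes, and 2 were lower at an unadjusted p under 0.05. DESeq2 and limma-voom called none lower either. The counts moved with single libraries: without NOD/Ltj 2 there were 4 of these genes called, without NOD/Ltj 3 there were 3 and without ICR 3 there were 4, while all genes gave 73, 13 and 149 calls in these fits and 142 without ICR 2. At the background share, too, few or none of 120 genes would be called lower. The share called higher lay above the background, in genes that were selected with earlier results known. The 5 of 118 include Zfp967 and Zfp968, which had 41 and 32 counts summed over the ICR libraries. Both met the threshold on summed counts only with their NOD/Ltj counts, which favoured a higher level in NOD/Ltj. The excess over the background is therefore no independent support for a difference in these genes as a set.

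Counts by other rules are given with and without Zfp966 and Zfp729a. Both versions include Zfp967, Zfp968, Zfp965, Zfp973 and Zfp985, which met the threshold of 60 only with their NOD/Ltj counts. At an unadjusted p under 0.05, 25 of 120 (20.8%) were higher and 2 (1.67%) were lower, against 8.00% and 5.05% of all genes. Of the 118 without that pair, 23 (19.5%) were higher. The libraries of the strains did not overlap, with NOD/Ltj above ICR, in 30 of 120 (25.0%), or 28 of 118 (23.7%), against 11.2% of all genes. NOD/Ltj lay below ICR without overlap in 4 (3.33%), against 8.89%. DESeq2 called 17 of 120 (14.2%) higher, or 15 of 118 (12.7%), against 4.31% of the 21791 genes with a DESeq2 adjusted p. That larger set includes genes that the edgeR filter left out, so it is an unlike background. The median log2 fold change was 0.20 over the 120, with 83 positive and 37 negative, and −0.03 over all genes tested. The other Zfp-numbered genes with at least 60 summed counts had a median of 0.07, and 2 of 242 were called higher (0.826%), Zfp62 and Zfp429, named after their values were seen and each called in 1 of the 6 fits with a library left out.

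The summed level of all 121 genes was 1074, 887 and 981 CPM in the NOD/Ltj libraries and 750, 797 and 876 CPM in the ICR libraries. Every NOD/Ltj library lay above every ICR library, and the ratio of the means was 1.21. Most of the genes were modestly expressed. A mean of at least 10 CPM was reached by 26 of them, and 14 lay under 1 CPM. The spread between libraries of a strain was taken over genes with a mean of at least 1 CPM. The median SD of log2 CPM was 0.27 in NOD/Ltj and 0.32 in ICR for 107 of these genes. It was close to that for 13972 of all genes tested (0.23 and 0.35).

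**Figure D1:**
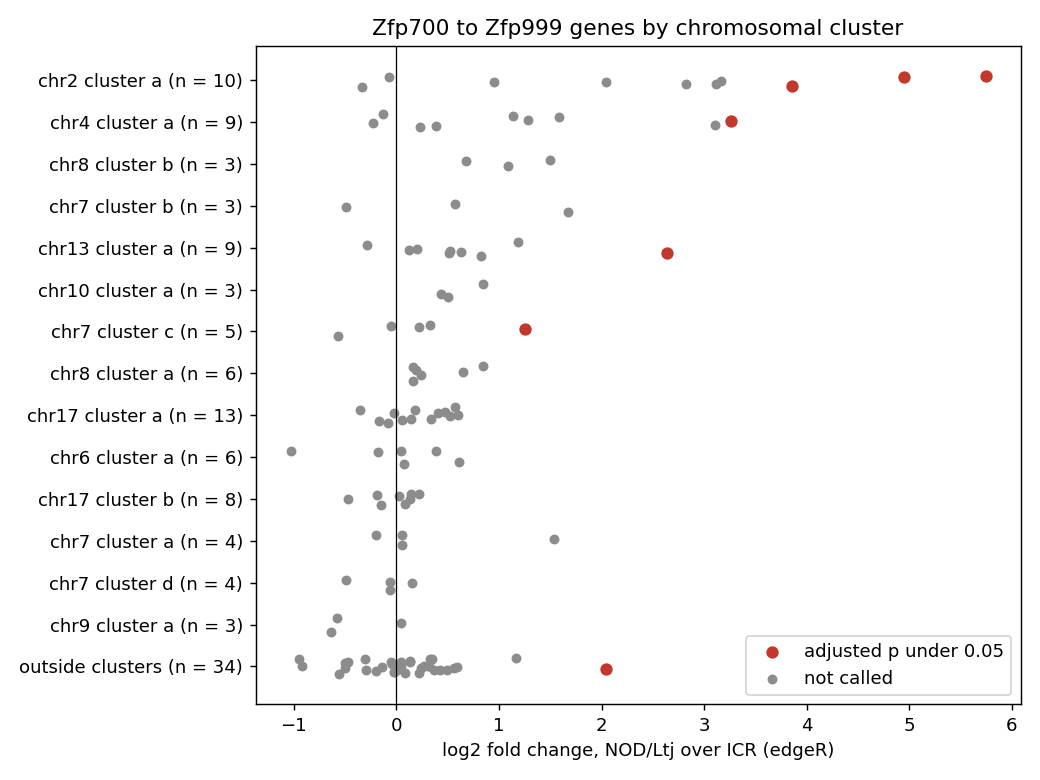
Log2 fold change (NOD/Ltj over ICR) of each of the 120 tested genes, by chromosomal cluster, with clusters ordered by their median and called genes in red. The chromosome 2 cluster reaches furthest to the right, up to 5.74 for Zfp966, while the chromosome 17 clusters lie around 0.

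In the gene order of GENCODE M21, 87 of the 121 genes fell into 14 clusters, defined as at least 3 of them with neighbours at most 1 Mb apart, and 34 lay outside. The genes were spread over 16 chromosomes, with 23 on chromosome 17 and 22 on chromosome 7. Clusters held 6 of the 7 called genes, in 4 clusters, and 1 called gene lay outside. The plot of fold changes by cluster shows how unevenly the differences were spread.

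The chromosome 2 cluster spanned 3.435 Mb and held 10 of the genes. Its median log2 fold change was 2.97, and 3 of its 10 were called, all higher in NOD/Ltj, against 1.88% of all genes. In 7 of the 10 every NOD/Ltj library lay above every ICR library, against 11.2% of all genes, and in 1, Zfp931, every one lay below. Without Zfp966, 2 of 9 were called and 6 lay above. Those called were Zfp967 and Zfp968, and those above also included Zfp965 and Zfp973. All of these met the threshold on summed counts only with their NOD/Ltj counts. The counts and the median of this cluster are therefore no independent support for a difference. In the chromosome 4 cluster (2.338 Mb, 9 genes) the median was 1.14, with 1 called and 4 without overlap. Among the 4 was Zfp985, which met the threshold only with its NOD/Ltj counts. In the chromosome 13 cluster (0.648 Mb, 10 genes, 9 tested) the median was 0.52, with 1 called and 5 without overlap. Without Zfp729a, 0 of 8 were called by edgeR's test and 4 lay above.

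Zfp966 is one of the copies on chromosome 2 and was picked for its strain difference, so its values are a description without a test. It stood at 12.4, 5.72 and 9.77 CPM in the NOD/Ltj libraries and 0.116, 0.210 and 0.192 CPM in the ICR libraries. The ICR values rest on 8, 13 and 11 counts, about 2 to 3 read pairs per library, which is at or near the floor of 3 read pairs (0.173 to 0.210 CPM in the ICR libraries) that a count of 0 would allow. All NOD/Ltj libraries were therefore far above all ICR libraries, with a log2 fold change of 5.74. From read pairs summed over libraries the ratio was 52.2, with an exact 95% interval of 26.3 to 122 that covers counting error only.

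Zfp967 has a transcript that shares every 150-base window with another gene. It stood at 9.50, 4.16 and 6.65 CPM in NOD/Ltj and 0.246, 0.194 and 0.210 CPM in ICR. The ICR libraries were again near the floor and the groups lay far apart. The log2 fold change was 4.95 ± 0.42 (SE, edgeR adjusted p = 0.00470), and the ratio of read pairs was 30.3 (16.2 to 63.7, exact 95% interval). Its adjusted p stayed under 0.05 whichever single library was left out, with 0.0491 as the highest, without NOD/Ltj 3. Limma-voom did not call it (adjusted p = 0.0526).

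Zfp968 stood at 3.24, 1.83 and 2.47 CPM in NOD/Ltj and 0.116, 0.226 and 0.175 CPM in ICR. Its NOD/Ltj libraries all exceeded the ICR libraries, which were near the floor. The log2 fold change was 3.86 ± 0.45 (SE, edgeR adjusted p = 0.0108), and the ratio of read pairs was 14.2 (6.99 to 33.7, exact 95% interval). The call ended without NOD/Ltj 3 (adjusted p = 0.0715) and with limma-voom (0.0554).

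The lowest NOD/Ltj library was at least 4 times the highest ICR library in 4 of 120 genes (3.33%), namely Zfp966, Zfp967, Zfp968 and Zfp729a, against 0.922% of all genes. Without Zfp966 and Zfp729a, picked for such a difference, it was 2 of 118 (1.69%). Zfp966, Zfp967 and Zfp968 had 32, 41 and 32 counts summed over the ICR libraries. They met the threshold of 60 only with their NOD/Ltj counts, which favoured but did not force a difference. The 2 of 118, Zfp967 and Zfp968, are therefore no independent support. Without NOD/Ltj 1 there were 7 genes separated at least 4-fold. The reverse held for none of the 120, against 0.183% of all genes.

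Near-identical neighbours of these copies had intermediate differences that edgeR did not call. Zfp973 stood at 2.04, 0.685 and 1.27 CPM in NOD/Ltj and 0.101, 0.113 and 0.227 CPM in ICR (log2 fold change 3.17 ± 0.63 SE, edgeR adjusted p = 0.0512). Zfp965 stood at 2.69, 0.710 and 1.45 CPM in NOD/Ltj and 0.130, 0.339 and 0.210 CPM in ICR (2.83 ± 0.65, edgeR adjusted p = 0.0851). Zfp969 stood at 6.43, 3.21 and 4.65 CPM in NOD/Ltj and 1.75, 1.15 and 0.559 CPM in ICR (2.04 ± 0.48, edgeR adjusted p = 0.0919). In all of them the strains did not overlap, and NOD/Ltj 1 was highest and NOD/Ltj 2 lowest, as for Zfp966, Zfp967 and Zfp968. Acinar markers had this order too, at 70195, 48046 and 56737 CPM in NOD/Ltj 1, 2 and 3. B cell markers had the opposite order over the NOD/Ltj libraries, lowest in NOD/Ltj 1 and highest in NOD/Ltj 2. So did T cell, salivary gland, skeletal muscle, endothelial and adipocyte markers. The part of these cell types in the differences was not tested. Zfp969 was called without ICR 1 (adjusted p = 0.0473), and DESeq2 called all of Zfp965, Zfp969 and Zfp973. Zfp969, Zfp970, Zfp971 and Zfp931 were named after their values were seen, to complete the cluster.

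Other members of the cluster had smaller fold changes. Zfp970 stood at 11.1, 6.20 and 14.3 CPM in NOD/Ltj and 4.75, 4.91 and 6.62 CPM in ICR, so that NOD/Ltj 2 fell within the ICR range (log2 fold change 0.96 ± 0.33 SE, edgeR adjusted p = 0.265). Zfp971 stood at 2.06, 1.63 and 1.39 CPM in NOD/Ltj and 1.17, 1.94 and 2.24 CPM in ICR, with the strains mixed (−0.07 ± 0.37). Zfp931, the last of the cluster, stood at 2.44, 2.45 and 2.24 CPM in NOD/Ltj and 3.61, 2.67 and 2.73 CPM in ICR (−0.33 ± 0.27, edgeR adjusted p = 0.704). Fold changes were thus uneven within the cluster.

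Zfp831 lies at the other end of the cluster, carries no KRAB pattern and had 2 finger patterns. It stood at 1.81, 4.11 and 3.00 CPM in NOD/Ltj and 0.722, 0.226 and 0.0699 CPM in ICR. NOD/Ltj 2 was highest and NOD/Ltj 1 lowest, the order of the summed B cell, T cell, salivary gland, skeletal muscle, endothelial and adipocyte markers. The part of these cell types in this difference was not tested. The log2 fold change was 3.11 ± 0.78 (SE, edgeR adjusted p = 0.112). It was called by DESeq2 (adjusted p = 0.000460) and by edgeR without ICR 1, the ICR library with the highest level (adjusted p = 0.0266).

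**Figure D2:**
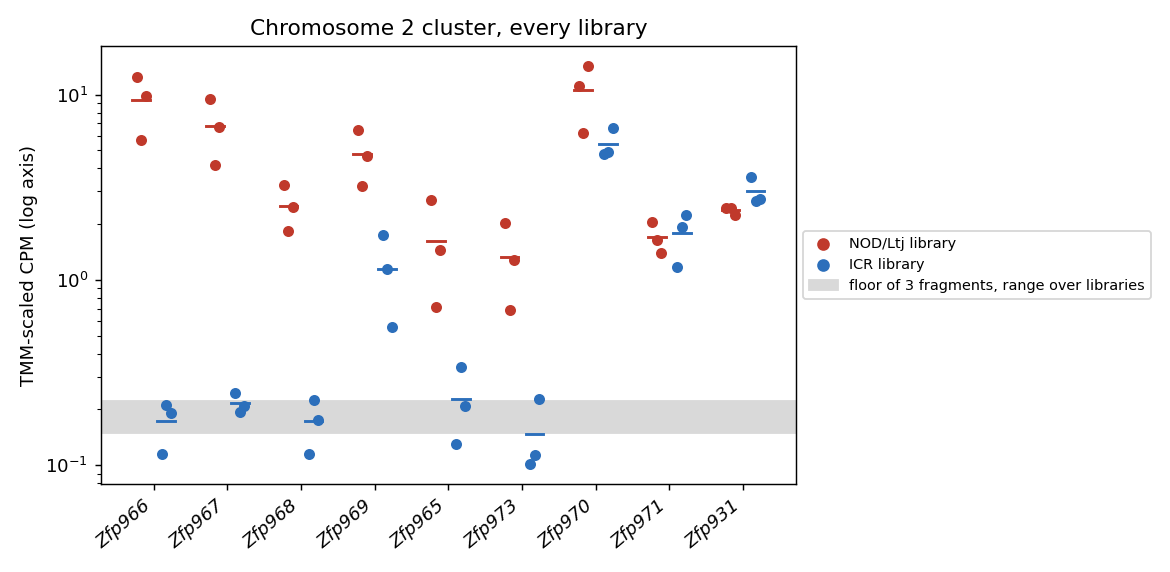
TMM-scaled CPM (log axis) of 9 genes of the chromosome 2 cluster, with NOD/Ltj libraries in red, ICR libraries in blue and bars at the means. The ICR points of Zfp966, Zfp967 and Zfp968 lie in or near the grey band of the 3 read pair floor (0.149 to 0.222 CPM over the 6 libraries), whereas those of Zfp970, Zfp971 and Zfp931 lie well above it.

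Counts within this family are uncertain, because reads that fit several copies may have been divided among them. The longest transcripts of Zfp965, Zfp967 and Zfp969 shared 100% of their 150-base windows with another gene, that of Zfp968 98.6%, that of Zfp973 73.8% and that of Zfp966 68.9%. Zfp973 also overlaps Gm14305 on the same strand. The copies were summed, so that a split among the summed copies does not move the total. Other zinc finger genes of the span, such as Gm14305, are not in the sums. Reads divided with those genes may therefore still affect them. Zfp966 to Zfp969 together reached 31.6, 14.9 and 23.5 CPM in NOD/Ltj and 2.22, 1.78 and 1.14 CPM in ICR, a ratio of means of 13.6. With Zfp965 and Zfp973 added, the sums were 36.3, 16.3 and 26.3 CPM in NOD/Ltj and 2.46, 2.23 and 1.57 CPM in ICR, a ratio of 12.6. All genes of the cluster but Zfp831 summed to 51.9, 26.6 and 44.2 CPM in NOD/Ltj and 11.99, 11.7 and 13.2 CPM in ICR, a ratio of 3.33. The strains stayed apart in the sums, while the ratio was smaller than that of Zfp966 or Zfp967 alone.

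Genes between the members of this cluster differed as well. Of 40 other tested genes within its span, 7 were called, all higher in NOD/Ltj, and 22 lay above ICR without overlap. The called ones, named after their values were seen, were Gm4631, Gm1980, Gm14305, Gm14405, Gm14296, Gm14410 and Gm14400. The shares over all genes were 1.88% called higher and 11.2% above without overlap. Most of these calls ended when a library was left out. Gm14296 was called in all 6 such fits, Gm14410 in 3, Gm4631, Gm14305 and Gm14400 in 1 each (without ICR 1), and Gm1980 and Gm14405 in 0 of the edgeR fits. Without NOD/Ltj 3 the adjusted p of these other 6 genes lay between 0.106 (Gm14410) and 0.247 (Gm14405). Gm14400 had 0 counts in each ICR library, Gm1980 had 4, 6 and 2, and Gm14405 had 4, 2 and 6. Such genes passed the filter on low counts only with their NOD/Ltj counts, which favoured a higher level in NOD/Ltj. Others among the 22, such as Gm16363 (0, 2 and 0 ICR counts), did too. The 7 and the 22 are therefore no independent support for a difference across the span. At least 3 finger patterns were present in 20 of the 40 and in 3 of the 7 called. Gm14410, which had 9 finger patterns, stood at 10.1, 8.68 and 10.3 CPM in NOD/Ltj and 0.404, 1.55 and 0.577 CPM in ICR.

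Over all genes, 75 of the 121 shared no 150-base window with another gene, 35 shared up to 50% and 11 shared more. Of the 7 called genes, 3 were among the 11 (Zfp966, Zfp967 and Zfp968) and 2 shared none (Zfp788 and Zfp990). Large sharing did not always go with a large difference. Zfp781 (89.0% shared), Zfp991 (62.8%), Zfp993 (60.9%) and Zfp960 (55.6%) had log2 fold changes of 0.43, 0.23, 0.39 and −0.05, none of them called. These 4 were placed here for their sharing, after their values were seen.

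**Figure D3:**
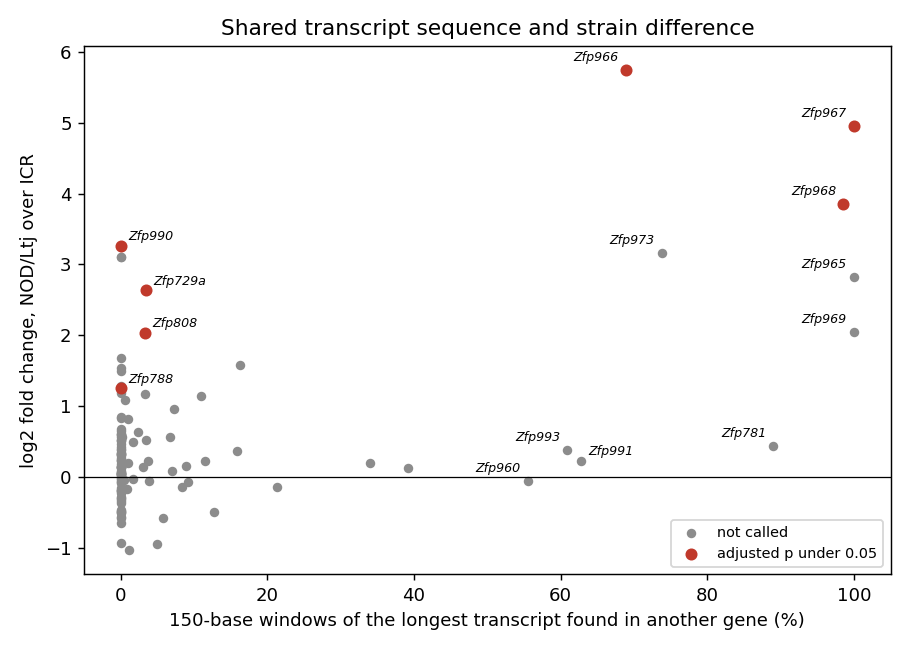
Log2 fold change (NOD/Ltj over ICR) against the percentage of 150-base windows of the longest transcript that occur in another gene, for the 120 tested genes, with called genes in red. Called genes lie at both ends, with Zfp788 and Zfp990 at 0% and Zfp967 at 100%.

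Zfp729a, also annotated as Rslcan3, belongs to a family of candidates for the regulator of sex-limited protein, a locus that represses male-specific liver genes in mice. It too was picked for its strain difference. It stood at 46.4, 37.5 and 41.6 CPM in NOD/Ltj and 5.98, 6.06 and 8.16 CPM in ICR. The libraries of each strain lay close together and far from the other strain, with a log2 fold change of 2.64, or 6.21-fold. Its transcript shared 3.44% of its 150-base windows with other genes, and it overlaps Gm49345 on the same strand.

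The relatives of Zfp729a in the cluster had smaller fold changes. Zfp729b stood at 3.35, 5.53 and 5.39 CPM in NOD/Ltj and 5.10, 3.75 and 4.25 CPM in ICR, with the strains mixed (log2 fold change 0.13 ± 0.28 SE). Zfp738 stood at 9.87, 7.97 and 8.29 CPM in NOD/Ltj and 5.32, 5.72 and 7.18 CPM in ICR, without overlap (0.52 ± 0.21, edgeR adjusted p = 0.355). Summed with Zfp729a, these relatives gave 59.6, 51.0 and 55.3 CPM in NOD/Ltj and 16.4, 15.5 and 19.6 CPM in ICR, a ratio of means of 3.22. The sum thus still separated the strains.

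Other genes of the chromosome 13 cluster were not called. Zfp712 had a log2 fold change of 1.18 ± 0.51, Zfp874b of 0.82 ± 0.26, Zfp953 of 0.63 ± 0.35 and Zfp759 of 0.52 ± 0.36 (SE), with edgeR adjusted p of 0.389, 0.211, 0.521 and 0.635. Zfp712, Zfp874b and Zfp953 lay higher in every NOD/Ltj library than in any ICR library, and Zfp759 overlapped. Of 15 other tested genes in the span, Zfp429 was called. It stood at 5.98, 6.66 and 5.54 CPM in NOD/Ltj and 2.11, 2.41 and 2.18 CPM in ICR (1.44 ± 0.23, edgeR adjusted p = 0.0251). Its call ended without NOD/Ltj 1 (adjusted p = 0.0594), NOD/Ltj 2 (0.138), NOD/Ltj 3 (0.133), ICR 2 (0.0860) or ICR 3 (0.0866).

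Zfp708, which in mice binds and represses a class of retroelements, lies in this cluster and had 0 counts in each NOD/Ltj library, 0 in ICR 1 and ICR 2, and 111 in ICR 3 (1.94 CPM). Its transcript shared 100% of its 150-base windows with other genes, and it overlaps Gm28557 and Rslcan18 on the same strand. A level seen in a single library of one strain gives no comparison. ICR 3 was also the library with the highest salivary and muscle markers, whose part in this level was not tested.

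On chromosome 4, Zfp990 stood at 9.50, 18.7 and 20.6 CPM in NOD/Ltj and 2.51, 0.582 and 1.98 CPM in ICR. The strains did not overlap, although NOD/Ltj 1 lay well under the other NOD/Ltj libraries. The log2 fold change was 3.27 ± 0.56 (SE, edgeR adjusted p = 0.0312), or 9.62-fold, and no 150-base window was shared with another gene. The call ended without NOD/Ltj 2 (adjusted p = 0.123), NOD/Ltj 3 (0.139) or ICR 3 (0.114), and with limma-voom (0.0503).

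Its neighbours were not called. Zfp979, the most abundant gene of the cluster per exon length, stood at 34.4, 24.2 and 24.9 CPM in NOD/Ltj and 8.99, 14.3 and 14.5 CPM in ICR, without overlap (log2 fold change 1.14 ± 0.25 SE, edgeR adjusted p = 0.0716). Zfp984 stood at 2.56, 2.37 and 2.88 CPM in NOD/Ltj and 1.14, 0.517 and 0.944 CPM in ICR (1.58 ± 0.38, edgeR adjusted p = 0.103). It overlaps Gm20707 on the same strand, and its groups did not overlap. Zfp985 stood at 1.00, 1.36 and 1.56 CPM in NOD/Ltj and 0, 0.194 and 0.262 CPM in ICR, near or under the floor (3.11 ± 1.01, edgeR adjusted p = 0.232). DESeq2 called Zfp979, Zfp984 and Zfp985. In contrast, Zfp991, Zfp992 and Zfp993, which share windows with one another, summed to 11.6, 10.3 and 13.1 CPM in NOD/Ltj and 15.7, 10.03 and 10.1 CPM in ICR, with a ratio of means of 0.979. Zfp982 had 0.278, 0.399 and 0.167 CPM in NOD/Ltj and 0.0722, 0.0646 and 0.210 CPM in ICR, too few counts to separate the strains. None of the 11 other tested genes in the span was called.

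On chromosome 7, Zfp788 stood at 15.5, 18.7 and 14.8 CPM in NOD/Ltj and 7.02, 7.03 and 6.55 CPM in ICR. The ICR libraries lay within 1 CPM of each other and all NOD/Ltj libraries lay above them. The log2 fold change was 1.25 ± 0.17 (SE, edgeR adjusted p = 0.0160), or 2.38-fold, and Zfp788 shared no window with another gene. The call ended without NOD/Ltj 2 (adjusted p = 0.0871), NOD/Ltj 3 (0.0951), ICR 2 (0.0705) or ICR 3 (0.0642).

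Zfp788 stood alone among the members of its cluster (1.960 Mb, 5 genes). Zfp975 stood at 6.35, 3.82 and 5.68 CPM in NOD/Ltj and 6.86, 8.03 and 8.67 CPM in ICR, with every NOD/Ltj library below (log2 fold change −0.57 ± 0.25 SE, edgeR adjusted p = 0.399). Zfp715, Zfp976 and Zfp719 had overlapping groups and log2 fold changes of −0.06, 0.22 and 0.33. Of 10 other tested genes in the span 1 was called, Siglecg, an inhibitory receptor of B cells, whose call ended without NOD/Ltj 3 (adjusted p = 0.0665).

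Zfp808 lies on chromosome 13 outside the clusters and had 22 finger patterns. It stood at 2.57, 3.01 and 2.21 CPM in NOD/Ltj and 0.737, 0.630 and 0.524 CPM in ICR. All NOD/Ltj libraries exceeded all ICR libraries, with a log2 fold change of 2.04 ± 0.33 (SE, edgeR adjusted p = 0.0264), or 4.11-fold. The call ended without NOD/Ltj 1 (adjusted p = 0.0623), NOD/Ltj 2 (0.132), NOD/Ltj 3 (0.118), ICR 2 (0.104) or ICR 3 (0.0942), and with limma-voom (0.0547). It shared 3.34% of its windows, with Zfp934 and Gm3325. Zfp934, named for this after its values were seen, stood at 4.11, 5.84 and 4.29 CPM in NOD/Ltj and 2.54, 1.66 and 2.13 CPM in ICR (1.17 ± 0.29, edgeR adjusted p = 0.113, DESeq2 adjusted p = 0.0169).

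**Figure D4:**
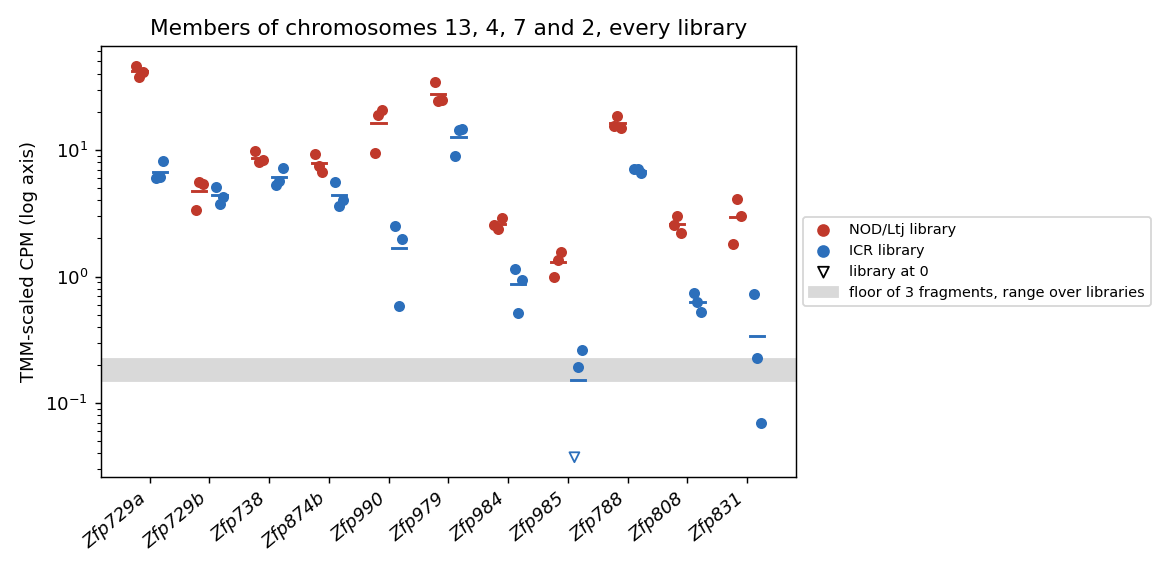
TMM-scaled CPM (log axis) of genes on chromosomes 13, 4, 7 and 2, with NOD/Ltj libraries in red, ICR libraries in blue, bars at the means and an open triangle for a library at 0. Zfp729a, Zfp990, Zfp788 and Zfp808 show red points wholly above blue ones, while those of Zfp729b are mixed.

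In the remaining clusters none of these genes was called. In the chromosome 17 clusters, log2 fold changes ran from −0.36 (Zfp948) to 0.60 (Zfp995) over 13 genes and from −0.47 (Zfp799) to 0.22 (Zfp955a) over 8 genes. NOD/Ltj lay above ICR without overlap in 4 of the 13 and 0 of the 8, against 11.2% of all genes. In the pair of chromosome 8 clusters all 9 were positive, from 0.16 to 1.496 (Zfp882), and 4 of 9 lay above ICR without overlap, against 11.2% of all genes. The 3 genes of the chromosome 9 cluster ran from −0.64 (Zfp872) to 0.05 (Zfp809). The chromosome 6 cluster ran from −1.03 (Zfp783) to 0.61 (Zfp775), the chromosome 10 cluster from 0.43 (Zfp781) to 0.84 (Zfp873), and the other chromosome 7 clusters from −0.49 to 1.68 (Zfp850). DESeq2 called 2 further genes of these clusters. Zfp709 stood at 4.54, 4.27 and 3.86 CPM in NOD/Ltj and 1.88, 2.28 and 1.80 CPM in ICR. Zfp850 stood at 1.24, 1.18 and 1.20 CPM in NOD/Ltj and 0.433, 0.258 and 0.437 CPM in ICR. In both the strains did not overlap, and edgeR called neither (adjusted p = 0.0983 and 0.118). Genes named here other than Zfp809 were chosen after their values were seen, as the ends of each range or for their DESeq2 call.

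Of the 37 genes with a negative log2 fold change none was called. Zfp750, a regulator of epidermal differentiation, stood at 13.4, 10.99 and 12.9 CPM in NOD/Ltj and 17.7, 20.9 and 14.1 CPM in ICR (log2 fold change −0.50 ± 0.20 SE, edgeR adjusted p = 0.335). Zfp790 stood at 5.70, 4.35 and 5.68 CPM in NOD/Ltj and 6.80, 9.10 and 7.24 CPM in ICR (−0.56 ± 0.23, edgeR adjusted p = 0.355). In both, every NOD/Ltj library lay below every ICR library. The most negative value was that of Zfp783, a transcribed pseudogene that overlaps Zfp956, at −1.03 ± 0.56 (edgeR adjusted p = 0.517).

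The most abundant of the genes per exon length were not called. Zfp869, on chromosome 8, was highest, with 25.9 CPM per kb in NOD/Ltj and 16.5 CPM per kb in ICR on average. It stood at 44.8, 38.6 and 40.2 CPM in NOD/Ltj and 22.2, 28.6 and 27.8 CPM in ICR, without overlap (log2 fold change 0.65 ± 0.17 SE, edgeR adjusted p = 0.128). Zfp740 followed with 10.6 CPM per kb in NOD/Ltj and 9.66 CPM per kb in ICR, and then Zfp715 (7.60 and 7.91) and Zfp706 (7.55 and 7.65). Zfp706, which in mouse embryonic stem cells represses the pluripotency factor gene Klf4, overlapped between the strains, as did Zfp715 and Zfp740. Zfp946 (5.34 and 5.16 CPM per kb), Zfp979 (6.77 and 3.07), Zfp938 (5.72 and 4.03) and Zfp932 (4.60 and 5.05) completed the leading 8. Per kb, every library had more of Zfp869 than any library had of Zfp740, while the libraries of the further neighbours in this order overlapped. The called genes ranked lower, from Zfp788 at rank 25 to Zfp808 at rank 102 by the mean of both strains.

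**Figure D5:**
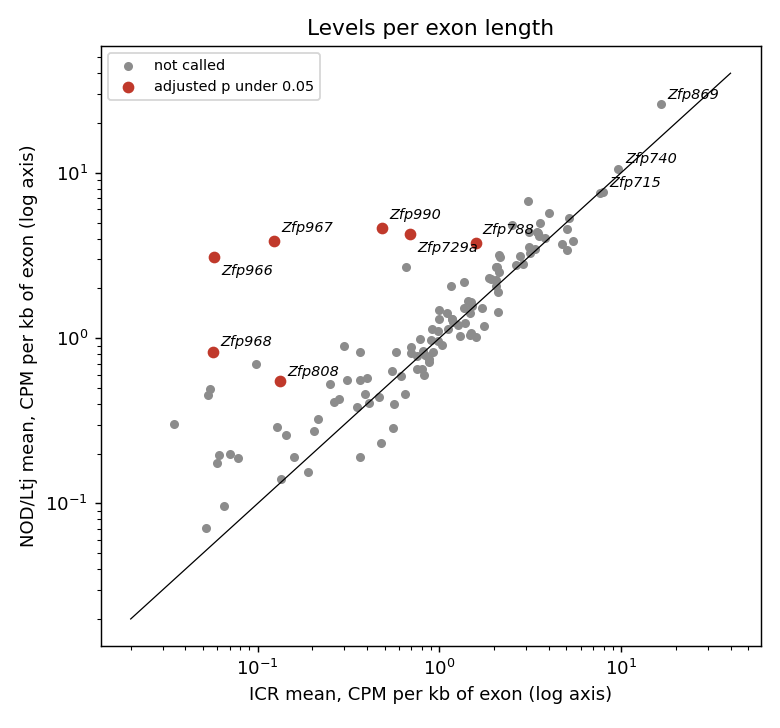
Mean level per kb of exon in NOD/Ltj (vertical, log axis) against ICR (horizontal, log axis), with the line of equal levels and called genes in red. Zfp869, Zfp740 and Zfp715 lead near the line, and Zfp966 stands furthest above it, at 3.11 CPM per kb in NOD/Ltj and 0.0578 CPM per kb in ICR. Zfp708, at 0 in NOD/Ltj, is not drawn.

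Genes with a known part in silencing retroviruses were not called. Zfp809, which in mice binds the primer binding site of murine leukaemia viruses and starts their silencing, stood at 10.1, 9.73 and 11.03 CPM in NOD/Ltj and 7.04, 9.06 and 13.8 CPM in ICR (log2 fold change 0.05 ± 0.26 SE). Zfp932, which in mouse embryonic stem cells represses endogenous retroviruses together with Gm15446, stood at 20.5, 12.3 and 12.4 CPM in NOD/Ltj and 12.2, 23.1 and 14.3 CPM in ICR (−0.14 ± 0.31). The strains were mixed in both. Zfp961, which binds another retroviral primer binding site, stood at 7.50, 10.8 and 9.95 CPM in NOD/Ltj and 5.97, 5.12 and 6.64 CPM in ICR, without overlap (0.67 ± 0.22, edgeR adjusted p = 0.240).

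Members with other roles were not called either. Zfp703 and Zfp704 are related repressors, and human ZNF703 is amplified in breast cancer. Zfp703 averaged 14.7 ± 2.22 CPM in NOD/Ltj and 11.9 ± 2.32 CPM in ICR, and Zfp704 9.90 ± 1.75 CPM in NOD/Ltj and 12.2 ± 1.94 CPM in ICR (SD, n = 3 each). Zfp746, known as PARIS, a repressor degraded through parkin, averaged 12.2 ± 0.801 CPM in NOD/Ltj and 13.9 ± 2.01 CPM in ICR (SD, n = 3 each). Zfp830, which acts in pre-mRNA processing and early embryos, averaged 6.55 ± 0.569 CPM in NOD/Ltj and 5.61 ± 0.918 CPM in ICR (SD, n = 3 each). Zfp800 averaged 11.2 ± 0.881 CPM in NOD/Ltj and 9.03 ± 2.32 CPM in ICR (SD, n = 3 each). Zfp827, whose human counterpart acts at telomeres, averaged 2.88 ± 0.875 CPM in NOD/Ltj and 1.92 ± 0.797 CPM in ICR (SD, n = 3 each). The X-linked Zfp711, mutated in human intellectual disability, averaged 0.531 ± 0.144 CPM in NOD/Ltj and 0.360 ± 0.163 CPM in ICR (SD, n = 3 each). The groups overlapped in every one of these genes.

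The partners of KRAB zinc finger proteins were measured as a list of 30 genes, all tested, among them Trim28, Setdb1, the HP1 genes and DNA methyltransferases. EdgeR's quasi-likelihood test called 0 of 30, as did DESeq2 and limma-voom, while at an unadjusted p under 0.05 there was 1 higher and 1 lower gene. Over all genes tested, edgeR called 1.88% higher and 0.361% lower, and 8.00% and 5.05% had an unadjusted p under 0.05. At these shares few or none of 30 genes would be called, so the 0 does not set the list apart. Trim28, the corepressor that KRAB domains bind, averaged 33.5 ± 6.04 CPM in NOD/Ltj and 35.2 ± 3.61 CPM in ICR (SD, n = 3 each). Setdb1 averaged 26.8 ± 4.67 CPM in NOD/Ltj and 42.1 ± 8.61 CPM in ICR (SD, n = 3 each, log2 fold change −0.65, edgeR adjusted p = 0.248). Dnmt1, the maintenance DNA methyltransferase, averaged 13.2 ± 2.46 CPM in NOD/Ltj and 8.82 ± 0.638 CPM in ICR (SD, n = 3 each, log2 fold change 0.58). The median log2 fold change of the list was 0.11, against −0.03 over all genes tested.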

How the data were processed

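RNA from 6 lacrimal gland samples was measured, with 1 library each. Per the labels' protocols, polyadenylated RNA was made into dUTP-marked libraries and sequenced as 150-base read pairs. Per the submitters' processing notes, the tools included fastp, StringTie and edgeR. The sources used here do not give the aligner, the genome build or whether counting used strand, so overlapping and near-identical genes are uncertain. The authors deposited estimated counts per gene (expected counts), as whole numbers and unscaled. No rounding was needed. Counts piled up at multiples of 4 (30.4 to 31.7% of values from 1 to 40, against 25% without steps), so 1 read pair was taken as about 4 counts. A count of 0 allows up to 3 read pairs, or 12 counts per library, counting error only.

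Symbols of GENCODE M21 matched 55141 of 55401 identifiers. EdgeR 4.0.16 (quasi-likelihood test, two-sided, TMM factors 0.809 to 1.26, filterByExpr) was fitted to all 6 libraries without a block, in R 4.3.3, with Benjamini-Hochberg adjustment over 18537 genes. DESeq2 1.42.0 and limma-voom (limma 3.58.1) were alternatives, with other scalings and filters and each library left out. Each standard error was obtained by dividing the size of the fold change (log2) by the root of F. Finger, KRAB and 150-base window matches came from GENCODE M21 transcripts, and promoters from RefSeq.

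The members, lists and tests were chosen with earlier results of these data known. Named were Zfp966 and Zfp729a, members separated at least 4-fold or called, up to 6 of their clusters with the largest fold changes, the 8 most abundant per length, a list with known roles, and the 6 largest fold changes in each direction at an unadjusted p under 0.05. Others are marked as named after their values were seen. No pair of libraries looked like one deposited more than once (chi-square per degree of freedom 34.9 to 343).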

Additional observations from a re-analysis of the deposited data

How the results depend on the processing

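The 7 called genes stayed called under relative log expression or upper quartile scaling, library sizes without the 20 most abundant genes, no filter and a filter of 1 CPM in 3 libraries. Counts divided by 4 added Zfp973, for 8. DESeq2 called 17 of these genes, all 7 among them, and limma-voom 2 (Zfp729a and Zfp788). The cause was not tested. With 1 library left out, between 3 and 9 were called. Zfp967 was called in every such fit, as were Zfp966 and Zfp729a, which were picked for their strain difference. Over all genes, DESeq2 called 1219, limma-voom 143 and the fits with 1 library left out 13 to 524, and of the other Zfp-numbered genes DESeq2 called 6 and the reduced fits 0 to 2. Genes separated at least 4-fold numbered 4 to 7 with 1 library left out. The scalings moved the median log2 fold change of all genes to between −0.07 and −0.03.

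The labels do not say whether replicate numbers pair the samples. Same-number correlations of deviations from the strain means were −0.120, −0.149 and 0.0723, and those of different numbers reached 0.167. With 3 samples per strain, these values cannot exclude a pairing. With the replicate number as a block, 3 of these genes (Zfp966, Zfp967 and Zfp729a), 154 of all genes and 0 of the other Zfp-numbered genes were called.

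Some uncalled genes changed sign. The log2 fold change of Zfp706 was 0.0062 with limma-voom and 0.0044 with the replicate block, and that of Zfp946 −0.0207 and −0.0129. With 1 library left out, log2 fold changes ran for Zfp706 from −0.208 to 0.0894, Zfp715 from −0.323 to 0.18, Zfp809 from −0.162 to 0.355, Zfp932 from −0.425 to 0.183, Zfp946 from −0.344 to 0.248, Zfp976 from −0.0871 to 0.414 and Zfp993 from −0.0558 to 0.803. Depth limits the ICR levels of Zfp966, Zfp967, Zfp968, Zfp965, Zfp973 and Zfp985, which lay near the floor of 3 read pairs.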
